A study of Homo sapiens with 2 samples.

Results

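The BCL2 family decides whether a stressed cell opens its mitochondria and dies. Anti-apoptotic members hold the killers in check, the effectors BAX and BAK1 form pores in the outer mitochondrial membrane, and BH3-only proteins carry stress signals to both. Cytochrome c then leaks out and activates caspases. In pancreatic ductal adenocarcinoma (PDAC) the anti-apoptotic proteins are known for helping tumor cells to survive chemotherapy. Members act largely through binding to each other and through protein turnover, which an mRNA array does not read.

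The genes described here were 10 members of that family, fixed by name: the anti-apoptotic BCL2, BCL2L1 (BCL-XL) and MCL1, the effectors BAX and BAK1, and the BH3-only genes BID, BAD, BBC3 (PUMA), PMAIP1 (NOXA) and BCL2L11 (BIM). Every probe set annotated to exactly 1 of these symbols was taken, which gave 32 probe sets for 9 members, of 41097 probe sets for 19775 genes in all. BBC3 was left out because its probe set carries other gene symbols too. AsPC-1, a human PDAC cell line, was transfected with PGR siRNA or with negative control siRNA, and 1 array was run for each condition. PGR encodes the progesterone receptor, a nuclear hormone receptor, and the comparison asks which transcripts differ after transfection with siRNA against it. The sources used here do not say which of the listed PGR siRNA duplexes went onto the array, and the labels and the methods give different culture media for these cells.

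The deposited values are linear intensities in arbitrary units. The mean of all values, after removal of 2% at each end, was 500.1 on both arrays. The siRNA target gives no check of the labels, and these arrays show no knockdown of it. PGR read 73.3 and 4.80 with its probe sets on the array labelled PGR siRNA, against 16.1 and 1.53 on the array labelled control. All of these are dim, and their order runs against the labels, so the arrays are called by their labels throughout. Values below 97.9, the median over both arrays of all probe sets with a single symbol, are called below the floor. All 8 pancreatic tumor epithelium markers passed the floor on at least 1 array and 7 on both. The brightest was KRT18, at 55425 for PGR siRNA and 48572 for control. CEACAM6, at 79.3 for PGR siRNA and 119.7 for control, and MUC1, at 174 for PGR siRNA and 122 for control, were near the floor. None of the 3 measured leukocyte markers passed it, the highest values being 54.6 for PGR siRNA and 96.1 for control. Of 6 fibroblast markers, 2 passed it on at least 1 array, namely COL1A1, at 298.5 for PGR siRNA and 299.3 for control, and DCN, at 60.3 for PGR siRNA and 114.5 for control. With a lone array on each side, condition and array cannot be told apart, nothing could be tested, and precision is limited by that number. A larger signal from more RNA per cell and one from a different mix of cells cannot be told apart either.

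Of the 25 member probe sets past the floor, 2 lay outside the middle 90% of the probe sets nearest in signal, a range that leaves 10% outside by its making, and both were those of BAX. The bases upstream of both effector genes, BAX and BAK1, are shown for that reason, a choice made after the BAX values were seen. Each run is 250 bases that end just before the gene's start in RefSeq (GRCh38.p14), read 5′ to 3′ on the gene's strand, with matches in capitals to the E-box CACGTG, the CCAAT box CCAAT or its reverse complement ATTGG, and the GC box GGGCGG or its reverse complement CCGCCC.
BAX (chr19:48954625-48954874, plus strand): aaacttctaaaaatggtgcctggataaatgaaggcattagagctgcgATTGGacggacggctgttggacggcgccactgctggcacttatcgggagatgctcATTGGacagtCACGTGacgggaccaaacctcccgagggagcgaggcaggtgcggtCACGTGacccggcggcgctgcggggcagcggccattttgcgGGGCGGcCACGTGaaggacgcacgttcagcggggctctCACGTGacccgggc
BAK1 (chr6:33580277-33580526, minus strand): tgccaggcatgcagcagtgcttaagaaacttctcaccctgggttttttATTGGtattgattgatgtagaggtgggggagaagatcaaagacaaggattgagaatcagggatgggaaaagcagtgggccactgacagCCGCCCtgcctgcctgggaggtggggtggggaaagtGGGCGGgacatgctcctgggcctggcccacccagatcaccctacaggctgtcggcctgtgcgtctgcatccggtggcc

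The BAX window held 4 E-boxes, 2 CCAAT boxes and 1 GC box, and the BAK1 window held no E-box, 1 CCAAT box and 2 GC boxes. At least 1 E-box lay in 6.34% of 35116 RefSeq promoter windows of the same length, a CCAAT box in 32.0% and a GC box in 42.6%. Entries were found for 9 of the 10 members, some with several starts (15 windows). An E-box lay in 4 of these windows, upstream of BAX, BBC3 and BID. The BID windows that held it overlap and share the same site, so that site is counted more than once. TGTTCT (reverse complement AGAACA), the half-site that the progesterone receptor and its relatives recognise, lay in none of the 15 windows and in 12.4% of all. The 4 motifs did not overlap in the windows shown. These are letters in a window, and no binding was measured.

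Both BAX probe sets were brighter on the array labelled PGR siRNA. BAX is the effector that moves from the cytosol into the mitochondrial membrane. Its brightest probe set, 211833_s_at, read 895 on the array labelled PGR siRNA and 635 on the array labelled control, a difference of 0.50 on the log2(intensity + 1) scale used for all differences here (PGR siRNA minus control), or 1.41-fold. The other, 208478_s_at, read 797 on the array labelled PGR siRNA and 459 on the array labelled control, a difference of 0.80, or 1.74-fold. To show how wide differences run at a given brightness, each probe set was set beside the 1000 nearest to it in mean signal. The middle 90% of those differences ran from -0.42 to 0.42 around 211833_s_at and from -0.45 to 0.41 around 208478_s_at, so both BAX values lay above. Among the 1000 neighbours of 208478_s_at, 1.4% were at least 1.5-fold higher. Of 5203 genes with 2 or more probe sets past the floor on both arrays, 18 had all of them at least as far up as the lower BAX value (0.346%), and 20 had all of them as far down, a count made after the BAX values were seen. BAX has 2 such probe sets, and genes with more meet that rule less easily. The share was not worked out for genes with 2 alone, so it does not measure how rare BAX is. The suffix _s_at marks probes shared by several transcripts, and which BAX isoforms each probe set reads was not worked out here.

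BAK1, the effector that sits in the mitochondrial membrane from the start, was read by 1 probe set, 203728_at, which gave 322 for PGR siRNA and 300 for control. Its difference was 0.10. The middle 90% at its brightness ran from -0.59 to 0.55, so that value lay well within the scatter and no second probe set checks it.

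**Figure D1:**
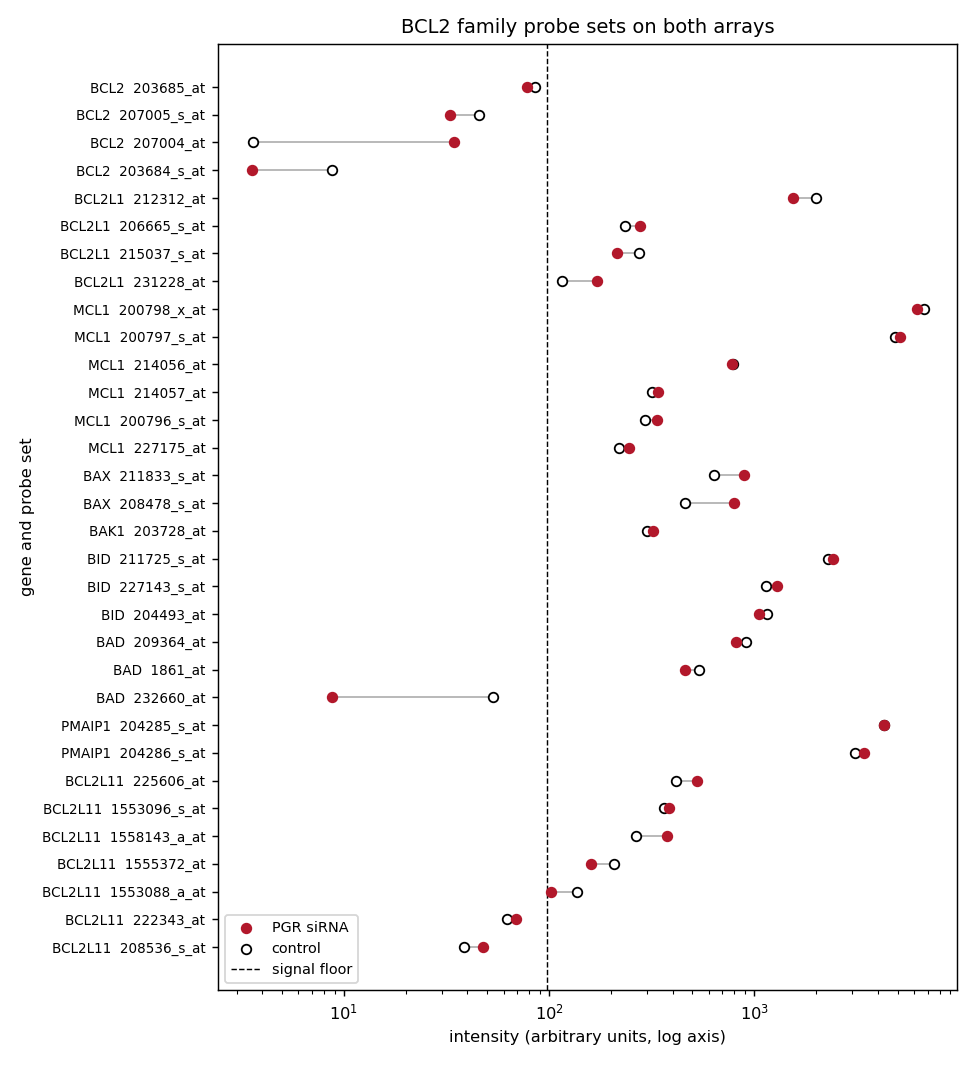
Intensity in arbitrary units (log axis) of each of the 32 probe sets of the BCL2 family on the array labelled PGR siRNA (filled) and the array labelled control (open), with the floor of 97.9 as a dashed line. Both BAX rows have the filled point to the right, at 895 and 797 for PGR siRNA against 635 and 459 for control, and all BCL2 rows lie left of the floor.

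Of the 10 members, 8 passed the floor, with 25 of the 32 probe sets, all of these on both arrays. Read by its brightest probe set, no member reached a 1.5-fold difference in either direction. Across the genome 3.65% of 11614 genes past the floor on at least 1 array reached 1.5-fold upward and 4.72% reached it downward, or 1.86% and 2.31% of the 10840 past it on both. The 8 members thus gave a count near that background. Their differences ran from -0.37 (BCL2L1) to 0.50 (BAX), with 5 members above 0 and 3 below, and their median was 0.040, against 0.021 for all genes past the floor. Among the 25 probe sets, 16 read higher and 9 lower, with a median of 0.084, against 0.0093 for the 19569 probe sets past the floor on both arrays. A single one, the dimmer BAX probe set, passed 1.5-fold, where 2.21% of all such probe sets did so upward and 3.23% downward.

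**Figure D2:**
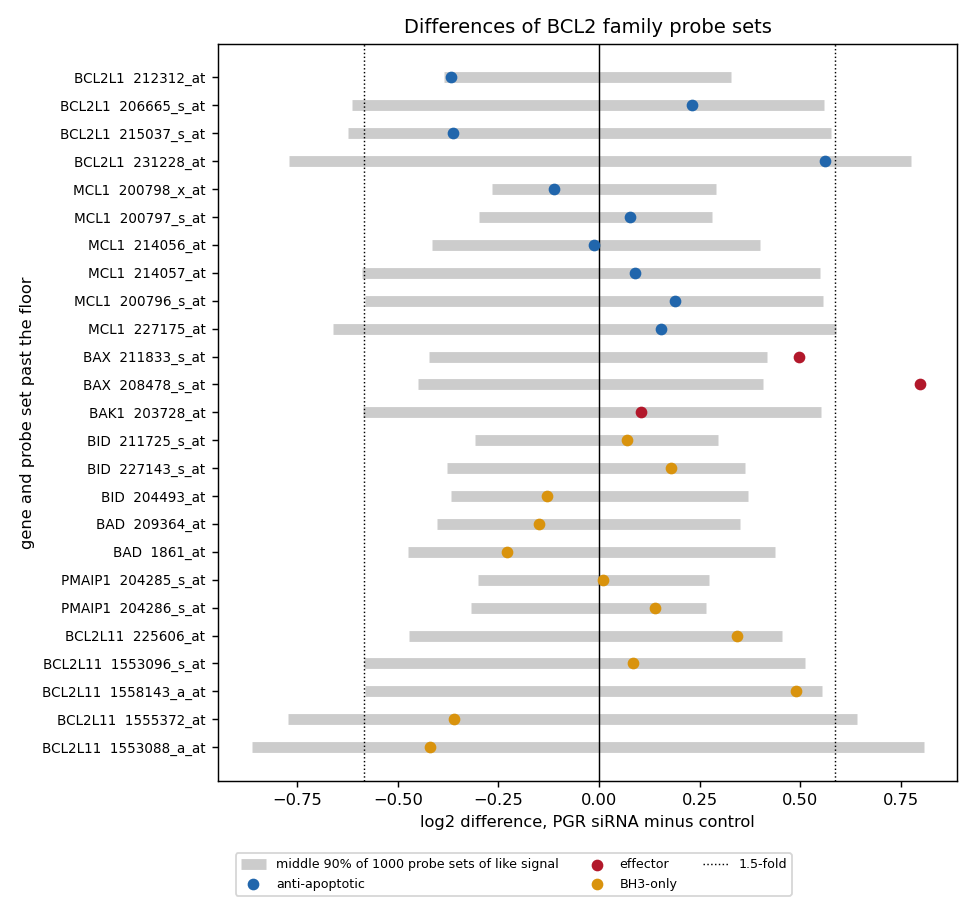
Log2 difference (array labelled PGR siRNA minus array labelled control) of the 25 probe sets past the floor, colored by role, with grey bars for the middle 90% of the 1000 probe sets nearest in signal and dotted lines at 1.5-fold. Only the BAX points, at 0.50 and 0.80, lie beyond their bars.

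The anti-apoptotic genes gave no common direction. BCL2, the founding member, was below the floor on both arrays with all 4 of its probe sets. The brightest, 203685_at, read 77.9 on the array labelled PGR siRNA and 85.1 on the array labelled control. The dimmest signals diverged most, where 207004_at gave 34.3 for PGR siRNA and 3.61 for control, and 203684_s_at gave 3.55 for PGR siRNA and 8.76 for control. At that brightness such gaps are common, since the middle 90% of differences around 207004_at ran from -3.47 to 3.06, so no fold is given for BCL2.

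BCL2L1 encodes the survival protein BCL-XL and, through another splice form, a shorter protein that promotes death. Its 4 probe sets all passed the floor and split evenly in direction. Of these, 212312_at read 1541 on the array labelled PGR siRNA and 1990 on the array labelled control (-0.37), and 215037_s_at read 214 for PGR siRNA and 276 for control (-0.36). The remaining pair ran upward. Here 206665_s_at read 276 on the array labelled PGR siRNA and 235 on the array labelled control (0.23), and 231228_at read 171 for PGR siRNA and 116 for control (0.56). The value of 212312_at came close to the lower edge of its neighbours' range, at -0.38, and each of the others lay further inside. The splice form that each probe set reads was not worked out here, so the split has no isoform attached to it.

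MCL1, a short-lived survival protein, was read evenly. Its 6 probe sets lay between -0.11 and 0.19, and 4 of the 6 were above 0. The brightest, 200798_x_at, read 6212 on the array labelled PGR siRNA and 6709 on the array labelled control (-0.11). The next, 200797_s_at, read 5124 on the array labelled PGR siRNA and 4854 on the array labelled control (0.078). The suffix _x_at marks probes that can also bind other transcripts, and the brightest value carries that mark. The SD of the 6 differences was 0.11, which is a spread between probe sets and no biological error, against 0.26 pooled over the 5203 genes with 2 or more probe sets past the floor on both arrays.

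Among BH3-only genes, BAD ran lower and BCL2L11 was mixed. BAD, which binds BCL2 and BCL-XL and is switched off by phosphorylation, read 818 with 209364_at on the array labelled PGR siRNA and 908 on the array labelled control (-0.15). Its probe set 1861_at read 458 on the array labelled PGR siRNA and 537 on the array labelled control (-0.23). Both differences were within the range of their neighbours. Its remaining probe set, 232660_at, read 8.71 on the array labelled PGR siRNA and 53.3 on the array labelled control, below the floor on both.

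BCL2L11 encodes BIM, a potent activator of BAX whose mRNA is spliced into several forms. Of its 7 probe sets 5 passed the floor. Its brightest, 225606_at, read 526 on the array labelled PGR siRNA and 415 on the array labelled control (0.34). The largest upward value was that of 1558143_a_at, which read 375 on the array labelled PGR siRNA and 266 on the array labelled control (0.49), and 1553096_s_at stood at 0.084. Downward lay 1555372_at, which gave 160.3 for PGR siRNA and 206 for control (-0.36), and 1553088_a_at, which gave 102 for PGR siRNA and 137 for control (-0.42). The suffix _a_at marks probes that read alternative transcripts of a gene. The SD over the 5 was 0.41, wider than the pooled 0.26, and all 5 lay within the middle 90% of their neighbours. The other 2, 222343_at and 208536_s_at, were below the floor on both arrays.

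BID, which caspase 8 cuts to carry death receptor signals to mitochondria, and PMAIP1, which binds MCL1, both stayed near 0. The brightest BID probe set, 211725_s_at, read 2408 on the array labelled PGR siRNA and 2294 on the array labelled control (0.070), and its others stood at 0.18 and -0.13. PMAIP1 read 4313 on the array labelled PGR siRNA and 4287 on the array labelled control with 204285_s_at (0.0090) and 3415 for PGR siRNA and 3103 for control with 204286_s_at (0.14). None of these 5 values left the range of its neighbours.

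**Figure D3:**
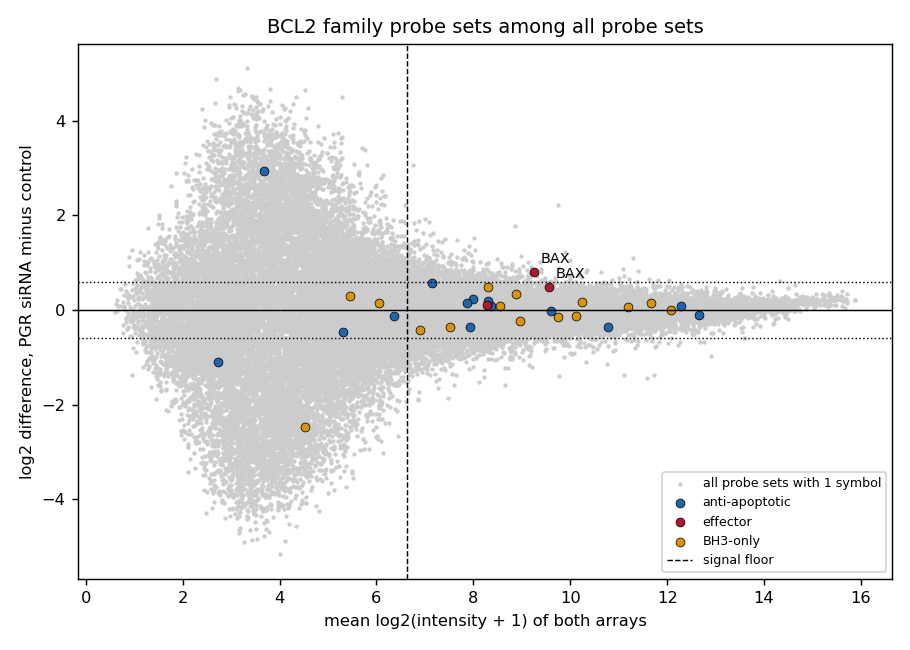
Log2 difference (array labelled PGR siRNA minus array labelled control) against mean log2(intensity + 1) for 41097 probe sets (grey) and the 32 of the BCL2 family (colored by role), with the floor as a dashed line and 1.5-fold as dotted lines. Scatter widens toward dim signal, left of the floor, where all BCL2 points, 1 BAD point and 2 BCL2L11 points lie and differences cannot be read as folds, while the BAX points stand at 0.50 and 0.80 in the narrower part.

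Probe sets of 1 gene agreed in sign in 3 of the 7 members with 2 or more past the floor, namely BAX, BAD and PMAIP1, and disagreed in BCL2L1, MCL1, BID and BCL2L11. Over all 5203 genes with such probe sets, 45.1% agreed in sign. Within members the pooled SD between probe sets was 0.29, against 0.26 for all genes. By role, the brightest probe sets had a median of 0.30 for the 2 effectors, 0.040 for the 4 BH3-only genes and -0.24 for the 2 anti-apoptotic genes. Over all 10 anti-apoptotic probe sets past the floor the median was 0.083, with 6 of them above 0, so that the sign of this group turned with the choice of probe set. The 12 BH3-only probe sets had a median of 0.040, with 7 above 0, and all 3 effector probe sets were above 0. Of those 3, 2 belong to BAX and 1 to BAK1. The effector median lies between BAX at 0.50 and BAK1 at 0.10, so it shows no shift shared by the effectors.

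**Figure D4:**
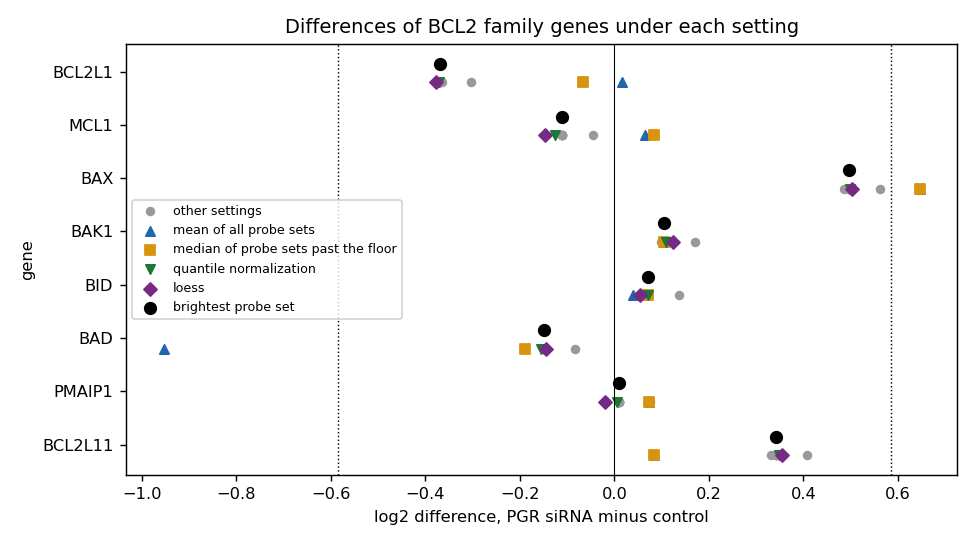
Log2 difference (array labelled PGR siRNA minus array labelled control) of each of the 8 members past the floor, with the brightest probe set in black and other readings and scalings beneath it, and 1.5-fold as dotted lines. BAX stays between 0.49 and 0.65, BCL2L1 moves to 0.015 when its probe sets are averaged, and BAD moves to -0.95 when its probe set below the floor is included. Changes of floor cannot move a point.

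Genes that act around the family were read from 8 further lists, with 76 genes past the floor, all on both arrays. On the array labelled PGR siRNA 3 of them reached 1.5-fold upward (3.95%, against 1.86% of all genes past the floor on both arrays) and 0 reached it downward (against 2.31%). Their median was 0.010, with 38 above 0 and 38 below. The 3 were E2F1, PLK3 and PPIF. E2F1, a transcription factor of S phase, stood at 0.71 with another probe set at -0.48. PLK3, a stress kinase in the list of p53 targets, stood at 0.69. PPIF, the cyclophilin of the mitochondrial permeability pore, stood at 0.60 with another probe set at 0.091. E2F1 read 242 for PGR siRNA and 148 for control, and PLK3 read 175 for PGR siRNA and 108 for control, where scatter is wide. Ranges of neighbours were worked out for the members only. Around 231228_at of BCL2L1, whose signal is like that of PLK3, the middle 90% ran from -0.77 to 0.78, and PLK3 lay inside. Around 1555372_at of BCL2L11, whose signal is like that of E2F1, it ran from -0.77 to 0.64, and E2F1 lay above. PPIF was brighter, at 3290 for PGR siRNA and 2177 for control. Around 211725_s_at of BID, the member probe set nearest to it in signal, the middle 90% ran from -0.31 to 0.30, and PPIF lay above.

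Of the wider BCL2 family, 10 of 16 genes passed the floor and none passed 1.5-fold, with a median of -0.053. BCL2L2 (BCL-W), a survival protein, was highest at 0.45, and BCL2L14 was lowest at -0.25. BCL2L2 read 1522 for PGR siRNA and 1111 for control. Around 227143_s_at of BID, of like signal, the middle 90% ran from -0.38 to 0.36. A value beyond such a range was thus not particular to BAX. In the list of apoptosome and caspase genes, which act after mitochondria open, 11 of 13 passed the floor, with a median of 0.097. ENDOG, a mitochondrial nuclease, was highest at 0.30. APAF1, the scaffold on which cytochrome c assembles caspase 9, was lowest at -0.53, with another probe set at -0.32. The brightest APAF1 probe set read 583 for PGR siRNA and 846 for control. Around 211833_s_at of BAX, of like signal, the middle 90% ran from -0.42 to 0.42, so this APAF1 value lay below. The inhibitor of apoptosis proteins had a median of -0.14 over 4 of 6 genes, from BIRC2 at 0.029 to XIAP, a direct caspase inhibitor, at -0.20, whose 6 other probe sets past the floor ran from -0.31 to 0.78.

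In the death receptor arm, which reaches the family through BID, 11 of 14 genes passed the floor, with a median of 0.035. TRADD, an adaptor of the TNF receptor, was highest at 0.23 with another probe set at 0.60, and CASP10, an initiator caspase, was lowest at -0.53 with another probe set at 0.45. Transcription factors known to act on family genes had a median of 0.052 over 9 of 12 genes, and FOXO1 was lowest at -0.54, with another probe set at -0.026. Genes that set MCL1 protein stability had a median of -0.086 over all 8, from HUWE1, a ubiquitin ligase, at 0.39 (its other probe sets ran from -0.67 to 0.018) to USP9X, a deubiquitinase that spares MCL1, at -0.29 (its other probe sets stood at -0.18 and 0.29). Mitochondrial channels and partners had a median of -0.033 over all 13, with VDAC3, an outer membrane channel, lowest at -0.21, though its other probe sets stood at 0.025 and 0.076. The list of p53 targets, of which BAX is a known one though left out of the list, had a median of -0.0032 over 12 of 14 genes, with 6 above 0 and 6 below, and RRM2B, a ribonucleotide reductase subunit, was lowest at -0.23.

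**Figure D5:**
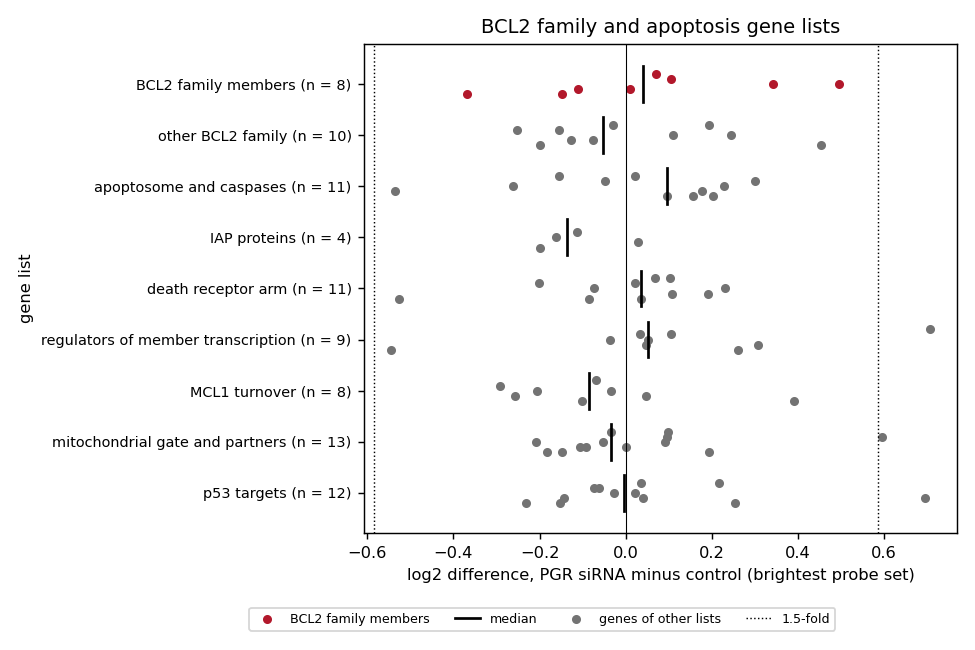
Log2 difference (array labelled PGR siRNA minus array labelled control) of each gene past the floor, read by its brightest probe set, for the BCL2 family members (red) and 8 further apoptosis lists (grey), with medians as bars and 1.5-fold as dotted lines. The list medians lie between -0.14 and 0.097, and only E2F1, PLK3 and PPIF pass 1.5-fold.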

How the data were processed

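Total RNA was labelled with biotin and hybridised to 3' expression arrays. The authors deposited linear intensity values, 1 per probe set and array. The summary algorithm and the background correction are not given in the sources used here, and equal trimmed means show that the arrays were scaled to each other, so only relative differences can be read. Here intensities were put on log2(intensity + 1). Of 54675 probe sets, 41097 had 1 symbol, 1801 several and 11777 none in the platform annotation, and only those with 1 were used. Symbols were updated by gene identifier for 41043. Each gene took the value of its brightest probe set (mean of both arrays) and was kept if that one reached the floor on either array. With 1 array per condition no test or error was computed. The members and lists were chosen with earlier results of these data known. From each list the highest and lowest genes past the floor and all past 1.5-fold were named. Alternatives were other readings of a gene's probe sets, scalings, an offset of 16, other floors and 2-fold. Olfactory receptor probe sets (135) gave one of the other floors, at their 95th percentile. The calculation was run on simulated data with changes planted only in bright genes and with less scatter than around the members here. That run checks the arithmetic and not the readings of these arrays. Scripts ran in Python 3.11.15 with pandas 2.3.3 for tables, statsmodels 0.14.6 for loess, numpy 2.4.6 and scipy 1.17.1 for arithmetic, and matplotlib 3.10.9 for plots.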

Additional observations from a re-analysis of the deposited data

How the results depend on the processing

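The count of members at least 1.5-fold different was 0 of 8 with the brightest probe set. Averaging all probe sets of a gene made it 2 (BAX, and BAD through a probe set below the floor). The median over those past the floor made it 1 (BAX). The shares of all genes under these 2 readings were not worked out, so neither count can be set against a background. It was 1 when the 25 probe sets were counted in place of genes, where 2.21% of all probe sets past the floor on both arrays passed 1.5-fold upward and 3.23% downward. Scaling by median, quantiles or loess and an offset of 16 left the count by brightest probe set at 0. It was also 0 at 2-fold and with the other signal filters, but 2-fold and stricter floors could not have raised a count of 0. Dropping the filter only added BCL2, whose brightest probe set stood at -0.13. The median over members ran from -0.051, with the floor at the 75th percentile (6 members left), to 0.11 with median centring, and was below 0 in that 1 of 11 alternatives. BAX ran from 0.49 to 0.65, BAD reached -0.95 when averaged, and BCL2L1 turned to 0.015 when its probe sets were averaged and was -0.067 by their median. MCL1 was above 0 in 2 alternatives, at up to 0.083, and PMAIP1 below 0 in 1, at -0.019 with loess. The other floors and signal filters could not alter the value of a single member. The ranges of single members thus come from the readings of probe sets, the scalings and the offset alone. A size of move was called by the SD between probe sets of a gene, 0.26. No paired analysis was possible because each condition has 1 array. Signal limits the reading of BCL2 and of 3 further probe sets below the floor.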
